A study of Mus musculus with 9 samples.

Results

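The genes that build, load, protect and cut cohesin were followed in 9 single mouse oocytes at metaphase II. The set was Rec8, Rad21, Smc1b, Smc3, Stag3, Nipbl, Sgo1, Sgo2a, Espl1 and Pttg1, and all 10 of 10 had exactly 1 array row named for them alone, out of 19938 genes measured this way. Oocytes came from 2-month-old females of the outbred ICR strain superovulated with PMSG (10 IU) and with hCG (10 IU) given 46 hours after it, a treatment shared by all groups. In 3 oocytes the crude direct lysate was amplified (NuGEN direct lysis), in 3 the RNA was purified with the Arcturus PicoPure kit and in 3 with the Qiagen RNeasy Mini kit. No oocyte was untreated or mutant, and the question the design allows is how the way of preparing RNA changes what is read from a single cell. The labels give 1 to 3 cells from each of 3 mice per condition without tying an oocyte to a mouse, and the spread between oocytes also holds any difference between mice and between amplifications.

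Cohesin is a ring of a pair of SMC proteins closed by a kleisin, with a STAG subunit bound to it, and it holds sister chromatids together from replication until they separate. Meiotic cells use versions of their own, with the kleisin REC8, the SMC protein SMC1B and the STAG protein STAG3. In the mouse oocyte this cohesin is put in place before birth and must last until ovulation. Separase cuts REC8 on the chromosome arms in the first division, while shugoshin shields it at the centromeres until the second, and in the egg arrested at metaphase II securin and cyclin B hold separase back.

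The cells showed the transcripts of oocytes, and most markers of other cells lay above background on no array. All 12 oocyte markers, such as Gdf9 and Zp3, lay above background on all 9 arrays. Background was the 95th percentile of 1231 olfactory, vomeronasal and taste receptor genes on each array, between 7.19 and 7.48 on the log2 scale of the deposited values. Of 28 measured markers of cumulus and granulosa, blood and immune, and oviduct cells, 17 lay above background on no array. The 4 above it on all arrays were Foxl2, Nr5a2, Cd3e and Krt8. Over all genes, 35.1% lay above background on no array and 43.1% on all. Among the blood and oviduct markers, Pax8 lay above it on 8 arrays, and Cd68 and Krt18 on 2 each. No marker of these 3 lists passed the test in any comparison (limma, adjusted p under 0.05). Unadjusted p was under 0.05 for 1 blood and 1 oviduct marker, both between the kits, where it was for 7.98% of all genes. The mean log2 value of the 17 cumulus and granulosa markers on an array was 7.02 to 7.13 with direct lysis, 6.88 to 7.02 with PicoPure and 6.97 to 7.28 with RNeasy. Of these 17 markers, 11 lay above background on no array, Amh, Amhr2, Inha, Fshr and Cyp11a1 among them. Foxl2 and Nr5a2 lay above it on all 9. Ptx3 lay above it on 2 arrays, and Inhba, Ptgs2 and Tnfaip6 on 1 each. The highest value was 8.48 for Inhba, 7.56 for Ptgs2 and 8.39 for Tnfaip6. With direct lysis, PicoPure and RNeasy the mean of Inhba was 7.02, 6.95 and 7.47. That of Tnfaip6 was 6.81, 6.54 and 7.31 in the same order. Whether an oocyte carried cumulus RNA was not tested. For the 6 blood and immune markers the means ran from 6.80 to 6.84 with direct lysis, 6.68 to 6.88 with PicoPure and 6.84 to 6.93 with RNeasy, and for the 5 oviduct markers from 7.34 to 7.58, 7.24 to 7.36 and 7.34 to 7.48 in the same order.

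Transcripts of 8 of the 10 genes were read in every oocyte, and those of Rec8 and Stag3 in none. Smc1b, Smc3, Rad21, Nipbl, Sgo1, Sgo2a, Espl1 and Pttg1 lay above background on all 9 arrays, as did 43.1% of all genes. Rec8 and Stag3 were not above background on any array, as were 35.1% of all genes. Taking as the level either the median of all genes or the 99th percentile of receptors also gave 8 and 2. With the 90th percentile Rec8 lay above it on 9 arrays and Stag3 on 5. No difference between preparations passed the test for any of the 10 genes.

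**Figure D1:**
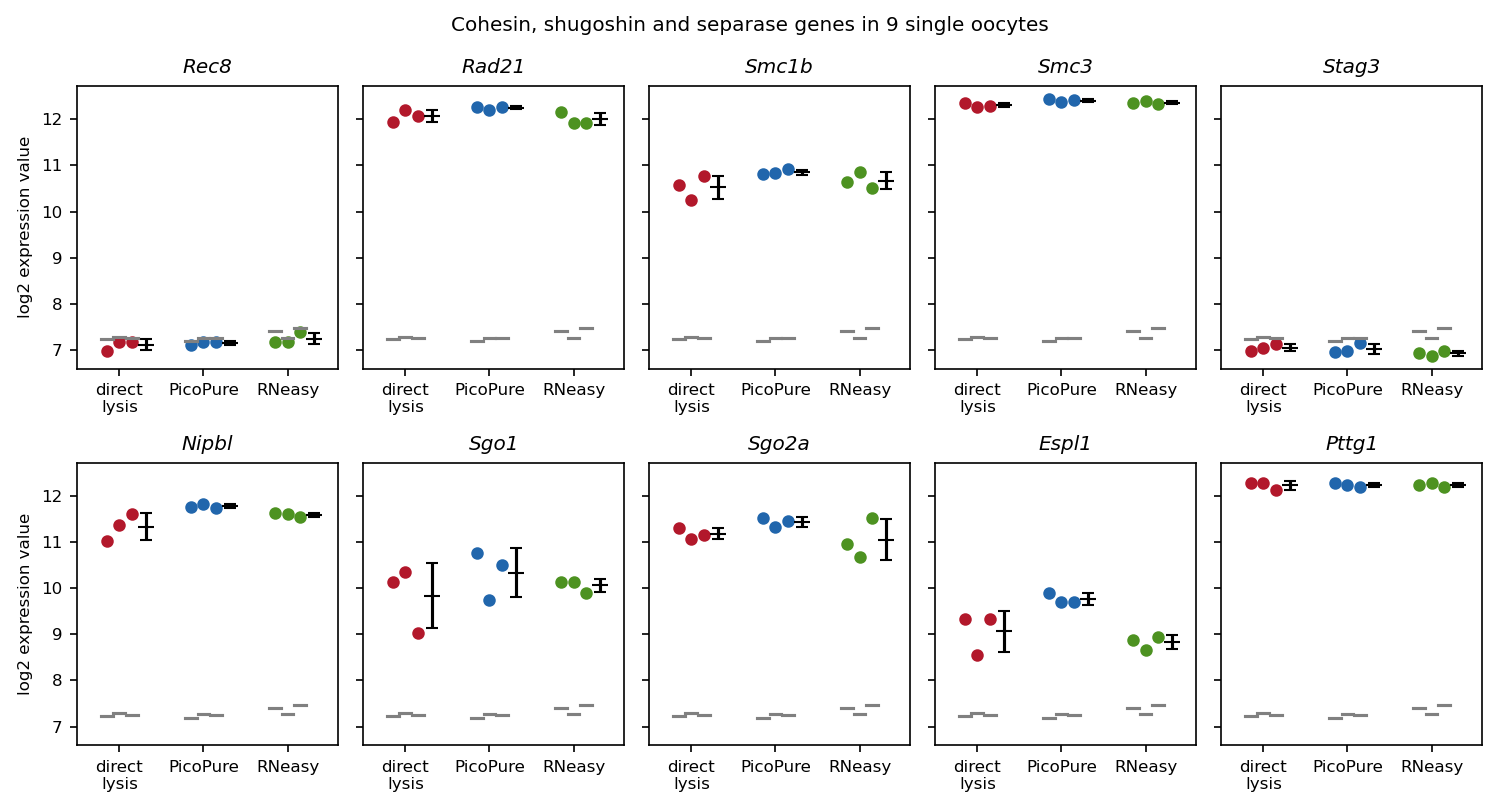
Log2 expression value of each gene (y axis) in each of the 9 oocytes (points, replicates 1 to 3 from left to right) by preparation (x axis), with mean ± SD (n = 3) beside the points and the background level of each array as a grey dash. Rec8 and Stag3 sit below the dashes, Smc3 and Pttg1 hold a narrow range, and Espl1 is higher in all 3 PicoPure oocytes than in the others.

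The meiosis-specific subunits are shown first with their promoters, since Smc1b was read in every oocyte and Rec8 and Stag3 in none. E2F6 is known to silence Smc1b and Stag3 in somatic cells of the mouse. The sequences run 5′ to 3′ from 250 bases before to 50 after 1 annotated start (RefSeq, GRCm38.p6). In Stag3, Rec8 and Espl1 (shown further below) that start lies inside the annotated gene. These genes begin at bases 138272514, 55618002 and 102296254 of their chromosomes. Distances are counted from the start used for the window. Capitals mark the motifs searched on both strands. The first was the core of an E2F site, TCCCGC, which reads GCGGGA on the other strand. The second was the E-box with the letters CACGTG, the same on both strands. The third was the cell cycle homology region with the letters TTTGAA, which reads TTCAAA on the other strand. The fourth was the CCAAT box, which reads ATTGG on the other strand. No letters of one motif overlap another in the sequences printed.
Smc1b, chr15:85131908-85132207, minus strand: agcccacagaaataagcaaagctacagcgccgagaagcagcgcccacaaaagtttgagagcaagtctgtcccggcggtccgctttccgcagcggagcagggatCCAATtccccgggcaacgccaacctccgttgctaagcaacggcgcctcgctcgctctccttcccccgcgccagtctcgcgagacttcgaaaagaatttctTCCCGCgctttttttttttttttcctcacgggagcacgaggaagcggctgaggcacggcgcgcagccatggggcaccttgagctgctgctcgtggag
Stag3, chr5:138280259-138280558, plus strand: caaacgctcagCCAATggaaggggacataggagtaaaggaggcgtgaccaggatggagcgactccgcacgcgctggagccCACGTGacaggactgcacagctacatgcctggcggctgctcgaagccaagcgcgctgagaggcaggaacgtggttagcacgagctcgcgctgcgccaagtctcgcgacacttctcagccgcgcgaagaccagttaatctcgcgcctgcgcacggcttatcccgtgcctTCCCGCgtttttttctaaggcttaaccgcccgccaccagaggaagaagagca
Rec8, chr14:55617916-55618215, plus strand: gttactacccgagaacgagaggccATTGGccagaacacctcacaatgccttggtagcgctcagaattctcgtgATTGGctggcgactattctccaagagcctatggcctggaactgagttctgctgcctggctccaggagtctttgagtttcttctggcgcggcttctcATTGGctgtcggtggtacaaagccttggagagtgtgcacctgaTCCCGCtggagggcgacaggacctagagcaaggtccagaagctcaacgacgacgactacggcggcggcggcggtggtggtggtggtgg
The E2F core began 47 bases before the start in Smc1b, 2 bases before it in Stag3 and 38 bases before it in Rec8. It occurs in 20.0% of 32851 promoters of the same length. CCAAT, present in 37.4% of promoters, was found in all 3, and the E-box, present in 7.15%, among these 3 in Stag3 alone. A match of letters is not a bound site. Whether an E2F factor binds or silences any of these genes in the oocyte was not tested. Over all 8 members with a promoter sequence, 5 held the E2F core and 6 the CCAAT box.

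Rec8, the meiotic kleisin that separase cuts, had log2 values of 6.97, 7.18 and 7.18 with direct lysis, 7.10, 7.18 and 7.18 with PicoPure, and 7.18, 7.18 and 7.39 with RNeasy. In 6 of these 9 oocytes the deposited value was identical to the last digit. RNeasy oocyte 3, with the highest Rec8 value, also had the highest background level, 7.48. Stag3, the meiotic STAG subunit, had 6.98, 7.05 and 7.14 with direct lysis, 6.96, 6.97 and 7.15 with PicoPure, and 6.94, 6.88 and 6.98 with RNeasy. Measured from the background of its own array, Rec8 lay between -0.26 and -0.07 log2 units and Stag3 between -0.50 and -0.10, and no fold change is given for values that are not above it. These rows give no measure of how much REC8 or STAG3 protein the oocytes held.

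Rad21, the kleisin of mitotic cohesin, had 11.95, 12.21 and 12.08 with direct lysis, 12.27, 12.21 and 12.28 with PicoPure, and 12.15, 11.93 and 11.92 with RNeasy. Every PicoPure oocyte lay above every RNeasy oocyte, and direct lysis overlapped both. The difference between the kits was 0.25 ± 0.095 log2 units (SE; limma, unadjusted p = 0.029, adjusted p = 0.559 over all genes). It did not pass the threshold.

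Smc1b, the meiotic SMC protein gene, had 10.57, 10.26 and 10.76 with direct lysis, 10.81, 10.83 and 10.92 with PicoPure, and 10.63, 10.87 and 10.51 with RNeasy. All direct lysis values lay below all PicoPure values, while RNeasy overlapped both. The difference between crude lysate and purified RNA was -0.23 ± 0.12 (SE), with a 95% interval from -0.51 to 0.05. Without direct lysis replicate 2 it was -0.096, and without replicate 3 it was -0.35. Smc3, its constant partner in every cohesin ring, kept a range of 0.17 log2 units over all 9 oocytes, between 12.28 and 12.44. Its difference between crude lysate and purified RNA was -0.08, with an interval from -0.20 to 0.04.

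Nipbl, the loader of cohesin onto DNA, had 11.02, 11.37 and 11.61 with direct lysis, 11.76, 11.83 and 11.73 with PicoPure, and 11.62, 11.61 and 11.53 with RNeasy. The 6 purified oocytes were close together, and the direct lysates were spread below and into the purified range. Direct lysis replicates 1 and 2 lay below all purified oocytes and replicate 3 among them. Nipbl averaged 11.33 in the 3 crude lysates, with an SD of 0.30, and 11.68 in the 6 purified oocytes, with an SD of 0.11. The difference was -0.35 ± 0.12 (SE), a 1.27-fold lower level (limma, unadjusted p = 0.019, adjusted p = 0.250), and it did not pass the threshold. Without direct lysis replicate 1 it was -0.19. Nipbl had the smallest unadjusted p of the 10 genes in this comparison and was the only one under 0.05, which 14.2% of all genes were.

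Sgo1, the shugoshin best known for guarding centromeres in mitosis, varied most between oocytes. It had 10.14, 10.34 and 9.04 with direct lysis, 10.76, 9.73 and 10.50 with PicoPure, and 10.14, 10.14 and 9.90 with RNeasy. The preparations overlapped, and direct lysis held both the lowest value and the widest spread. The difference between crude lysate and purified RNA was -0.36 ± 0.32 (SE), and 0.046 without direct lysis replicate 3, the lowest of all. Sgo2a, the shugoshin that recruits the phosphatase PP2A to protect centromeric REC8 in mouse oocytes, had 11.31, 11.07 and 11.16 with direct lysis, 11.51, 11.32 and 11.46 with PicoPure, and 10.96, 10.67 and 11.53 with RNeasy. The lowest and the highest of the 9 values were both RNeasy oocytes. The SD was 0.12 with direct lysis, 0.10 with PicoPure and 0.44 with RNeasy. The difference between crude lysate and purified RNA was -0.06 ± 0.17 (SE), and 0.058 without RNeasy replicate 3.

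Espl1, the gene of separase itself, had the largest difference between preparations of the 10 genes. It had 9.32, 8.55 and 9.32 with direct lysis, 9.90, 9.70 and 9.69 with PicoPure, and 8.88, 8.65 and 8.95 with RNeasy. All PicoPure oocytes lay above all others, and direct lysis overlapped RNeasy. Between the kits the means were 9.77 ± 0.12 with PicoPure and 8.83 ± 0.16 with RNeasy (SD, n = 3 each), a 1.92-fold difference of 0.94 ± 0.21 log2 units (SE, 95% interval 0.46 to 1.42). Its unadjusted p of 0.0020 ranked 132 of 19938 genes, and it did not pass after adjustment (limma, adjusted p = 0.303). Direct lysis differed from PicoPure by -0.70 ± 0.21 (SE; limma, unadjusted p = 0.0099, adjusted p = 0.231), and by -0.44 without direct lysis replicate 2. Crude lysate against purified RNA gave -0.23 ± 0.18 (SE), and 0.027 without direct lysis replicate 2. Over 17 alternative settings the adjusted p between the kits ran from 0.053 to 0.555.

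The promoter of Espl1 is shown because it alone among the 8 genes with a promoter sequence held the cell cycle homology region.
Espl1, chr15:102296043-102296342, plus strand: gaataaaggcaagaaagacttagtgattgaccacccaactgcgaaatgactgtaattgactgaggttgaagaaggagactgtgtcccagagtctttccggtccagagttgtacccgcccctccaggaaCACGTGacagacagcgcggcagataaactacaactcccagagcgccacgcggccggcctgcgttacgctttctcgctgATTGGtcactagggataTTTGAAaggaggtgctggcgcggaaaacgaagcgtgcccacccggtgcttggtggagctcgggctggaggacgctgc
Capitals mark the same letters as above. The cell cycle homology region, present in 17.9% of promoters, began 27 bases before the start, a CCAAT box in reverse 44 bases before it and an E-box 122 bases before it. The window held no E2F core as spelled above.

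Pttg1, the gene of securin, which inhibits separase until the anaphase-promoting complex destroys it, held 9 values between 12.12 and 12.29. Its means were 12.23 with direct lysis, 12.23 with PicoPure and 12.23 with RNeasy, and the difference between crude lysate and purified RNA had a 95% interval from -0.14 to 0.13.

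Oocytes of the same preparation differed little in some of these genes and widely in others. The residual SD of the fit was 0.040 for Smc3 and 0.064 for Pttg1, at the 1.47 and 6.30 percentiles of the 8597 genes above background on all arrays. It was 0.111 for Rad21, 0.178 for Nipbl and 0.182 for Smc1b, against a median of 0.193 for those genes. It was higher for Sgo2a (0.268), Espl1 (0.282) and Sgo1 (0.517), the last at the 91.7 percentile. In the plot of spread against level the cloud of all genes also drops at the highest levels, so these ranks carry the level of each row too. Among genes with a mean within 0.25 log2 units of its own, 13.6% had a smaller SD than Smc3, 34.5% than Pttg1 and 84.2% than Sgo1. The median SD of the 8 genes above background was 0.193 with direct lysis, 0.053 with PicoPure and 0.136 with RNeasy. Over the 8597 genes it was 0.187, 0.133 and 0.149 in the same order, so direct lysis had the largest median in both.

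**Figure D2:**
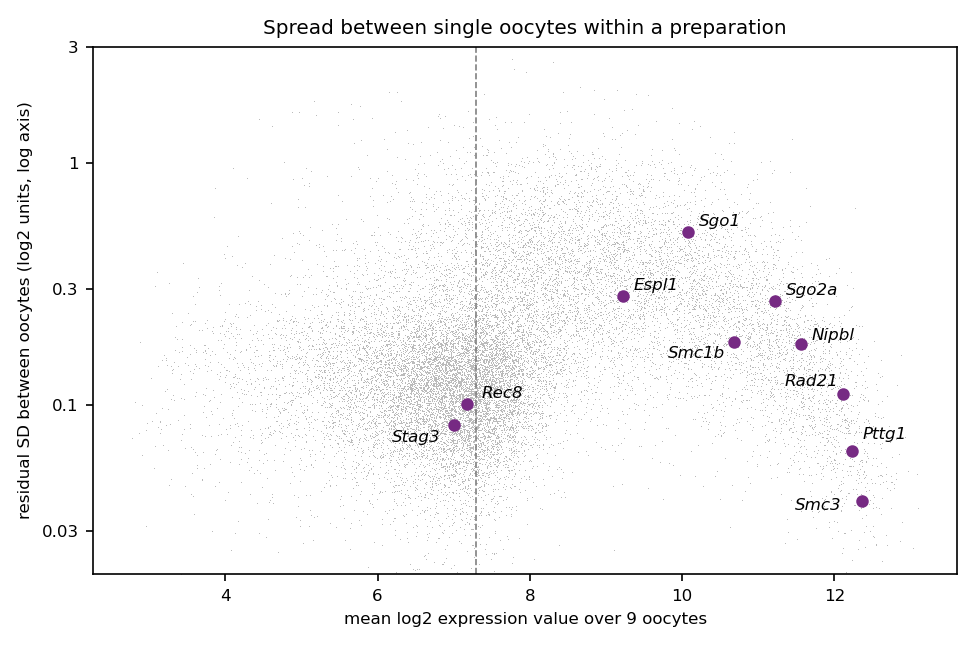
Residual SD between oocytes of the same preparation (y axis, log2 units on a log axis) against the mean log2 value over 9 oocytes (x axis) for 19938 genes (grey points) and the 10 genes (purple). The dashed line is the mean background of 7.29, and 51 genes with an SD under 0.02 are not drawn. Smc3 and Pttg1 have the smallest SD of the 10 genes and Sgo1 the largest.

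The genes nearest to Sgo1 in pattern were Mcee, Vamp7 and Tubgcp5, taken as those with the smallest root mean square difference of centred values over the 9 arrays among genes above background on all of them. This measure was 0.19 log2 units for Mcee, 0.20 for Vamp7 and 0.22 for Tubgcp5. Mcee, a methylmalonyl-CoA epimerase gene, had 9.05 in direct lysis replicate 3 and between 9.44 and 10.70 in the other oocytes. Vamp7, a vesicle fusion protein gene, had 9.87 there and Tubgcp5, a gene of the gamma-tubulin ring complex, 9.04. All 4 genes had their lowest value in the same oocyte, which the choice of genes by nearness to Sgo1 favours. The likeness says nothing of shared function.

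**Figure D3:**
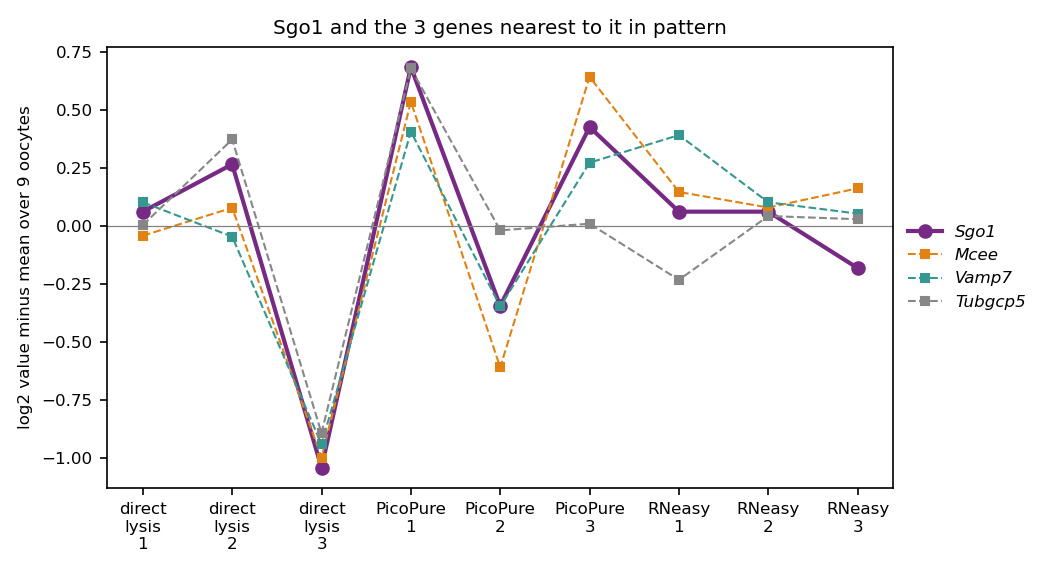
Log2 value minus the gene's mean over 9 oocytes (y axis) in each oocyte (x axis) for Sgo1 (solid purple line) and the 3 genes nearest in pattern (dashed lines). All 4 lines have their lowest point in direct lysis replicate 3, which the choice of genes by nearness to Sgo1 favours.

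Between crude lysate and purified RNA, 0 of the 10 genes passed the threshold (limma, adjusted p under 0.05), where 1.01% of all genes did. For none of the 10 were the 3 direct lysis values clear of all 6 purified values, which was so for 8.02% of all genes. The difference was negative for all 8 genes above background, with a median of -0.15, beside 4592 of the 8597 genes above background on all arrays and a median of -0.02. It lay between -0.36 (Sgo1) and -0.0051 (Pttg1). With quantile normalization Sgo2a and Pttg1 had positive differences of 0.031 and 0.037. Against RNeasy alone, direct lysis was lower in 5 of the 8 genes and higher in 3, with a median difference of -0.03. Against PicoPure alone it was lower in all 8, with a median of -0.29. Of the 8597 genes, 4347 were lower against RNeasy and 4878 against PicoPure. The lysis buffer and the column both set crude lysate apart from purified RNA and cannot be told apart here.

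Between PicoPure and RNeasy, 0 of the 10 genes passed the threshold (limma), where 0.0602% of all genes did. Unadjusted p was under 0.05 for Espl1 and Rad21 and for 7.98% of all genes. In 3 genes, Espl1, Rad21 and Nipbl, every PicoPure value lay above every RNeasy value, as it did for 6.92% of all genes and for 13.0% of the genes above background on all arrays. The difference was positive for 7 of the 8 genes above background, with a median of 0.22, beside 4609 of the 8597 such genes and a median of 0.02. Of the 8 genes above background, 7 had their highest mean with PicoPure, which held for 37.7% of the 8597 genes above background on all arrays. The background level itself was 7.19 to 7.26 with PicoPure and 7.27 to 7.48 with RNeasy, and its part in these differences was not tested.

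**Figure D4:**
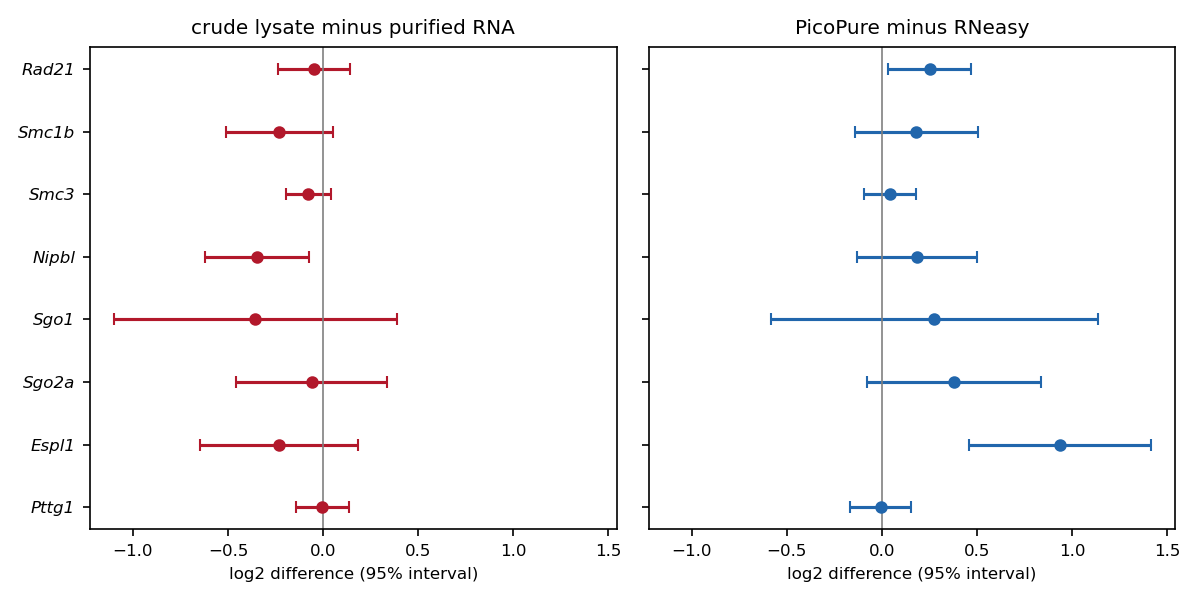
Log2 difference (x axis) with its 95% interval from limma for the 8 genes above background (y axis), crude lysate minus purified RNA on the left and PicoPure minus RNeasy on the right. Nipbl on the left and Espl1 and Rad21 on the right have intervals that leave out 0 before adjustment over all genes.

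Set against each kit alone, direct lysis gave 0 calls among the 10 genes (limma). The shares over all genes were 0.436% against RNeasy and 0.597% against PicoPure. Against RNeasy the differences ran from -0.26 (Nipbl) to 0.24 (Espl1) in the 8 genes above background, with 0 genes at an unadjusted p under 0.05 (13.4% of all genes) and 0 without overlap of the groups (16.9% of all genes). Against PicoPure they ran from -0.70 (Espl1) to -0.0028 (Pttg1) in the 8 genes above background, with Espl1 and Nipbl at an unadjusted p under 0.05 (12.3% of all genes). In 5 genes, Smc1b, Smc3, Sgo2a, Espl1 and Nipbl, every direct lysis value lay below every PicoPure value, as it did for 7.67% of all genes and for 12.0% of those above background on all arrays. Both comparisons with direct lysis share its 3 oocytes. Over all 3 preparations at once 0 of the 10 genes passed the moderated F test (limma), where 0.637% of all genes did, and the smallest adjusted p was 0.173, for Espl1. Unadjusted p was under 0.05 for Espl1 and Nipbl, and for 12.8% of all genes.

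Most other cohesin subunits and regulators were read in all oocytes, and 1 of them passed the threshold in crude lysate. Of 13 other cohesin subunits and regulators, 12 lay above background on all 9 arrays. In crude lysate 1 was lower and 0 higher (limma), with a median difference of -0.30 over the list against 0.00 over all genes, of which 0.667% were lower and 0.341% higher. The gene was Wapl, whose product takes cohesin off chromosomes. It had 11.10, 10.75 and 11.14 in crude lysate, against a lowest, median and highest value of 11.80, 11.89 and 12.02 in purified RNA. The groups did not overlap, and the difference was -0.90 ± 0.09 (SE), a 1.87-fold lower level (limma, adjusted p = 0.0111). With the replicate number as a block the call was lost (limma, adjusted p = 0.0532). In the fit of all 3 groups Wapl also passed against RNeasy, at -0.84 (limma, adjusted p = 0.0343), and against PicoPure, at -0.96 (limma, adjusted p = 0.0153). With only the groups compared in the fit it passed neither (limma, adjusted p = 0.142 against RNeasy and 0.128 against PicoPure). Between the kits no gene of this list passed (limma), and 1 had an unadjusted p under 0.05, as did 7.98% of all genes.

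Rad21l, a kleisin of meiotic prophase, was the exception in detection and was picked out after its values were seen. It had 9.77 in PicoPure oocyte 1 and between 4.75 and 5.12 in the other 8, so it lay above background on 1 of 9 arrays.

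Of 13 genes that act with shugoshin at the centromere, mostly PP2A subunits, 8 lay above background on all arrays. None passed in any comparison (limma), with 1 to 3 genes at an unadjusted p under 0.05 in each. Over all genes that share ran from 7.98% between the kits to 14.2% in crude lysate against purified RNA. In the latter comparison the 3 genes of this list were Ppp2r5c, Ppp2r1a and the shugoshin gene Sgo2b. Sgo2b, picked out after its values were seen, lay above background on 8 of 9 arrays, with 6.88 in direct lysis replicate 3. The PP2A regulatory subunit gene Ppp2r5c differed by -0.68 ± 0.19 (SE; limma, adjusted p = 0.163), the scaffold subunit genes Ppp2r1a by -0.39 and Ppp2r1b by 0.21. Without direct lysis replicate 2 the difference of Ppp2r1a was -0.20 and that of Ppp2r1b 0.13. Without direct lysis replicate 1 the difference of Ppp2r5c was -0.93 and passed (limma, adjusted p = 0.0296). The median of the list was 0.01.

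Of 10 genes listed for the control of separase, Ccnb1, a cyclin B gene, had no array row named for it alone and was not measured. The 9 measured genes all lay above background on all arrays, and in crude lysate 2 were lower and 0 higher (limma). They were Cdc20, an activator of the anaphase-promoting complex, and Fbxo43, which keeps that complex inhibited at metaphase II. Cdc20 had 9.30, 8.58 and 9.14 in crude lysate, against 9.86, 10.17 and 10.48 as the lowest, median and highest in purified RNA. Fbxo43 had 11.40, 11.85 and 11.11 in crude lysate, against 12.25, 12.51 and 12.57 in purified RNA. The differences were -1.13 ± 0.18 and -1.01 ± 0.15 (SE; limma, adjusted p = 0.0325 and 0.0283). The groups did not overlap in either gene, and the calls were lost in 10 of 16 alternatives for Cdc20 and 9 for Fbxo43. The median of the list was 0.09, of the opposite sign.

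Condensin and the SMC5/6 complex, the other SMC complexes, had 13 of 14 genes above background on all arrays, and 3 were lower and 0 higher in crude lysate (limma). Ncapg2, a subunit of condensin II, had 8.95, 9.16 and 9.78 in crude lysate, against 10.43, 10.87 and 11.15 as the lowest, median and highest in purified RNA, a difference of -1.53 ± 0.19 (SE; limma, adjusted p = 0.0177). Smc6, an SMC subunit of the SMC5/6 complex, differed by -0.67 ± 0.10 and Nsmce3, another subunit of that complex, by -0.34 ± 0.06 (SE; limma, adjusted p = 0.0273 and 0.0477). Smc5, the other SMC subunit, differed by 0.06 ± 0.19 (SE; limma, adjusted p = 0.907). In Ncapg2, Smc6 and Nsmce3 crude lysate and purified RNA did not overlap. The calls were lost in 6 of 16 alternatives for Ncapg2, 7 for Smc6 and 13 for Nsmce3. The list's median was -0.02. Between the kits no gene of the separase, centromere or condensin lists passed (limma). Unadjusted p was under 0.05 for 2, 1 and 1 genes of these lists, and for 7.98% of all genes.

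**Figure D5:**
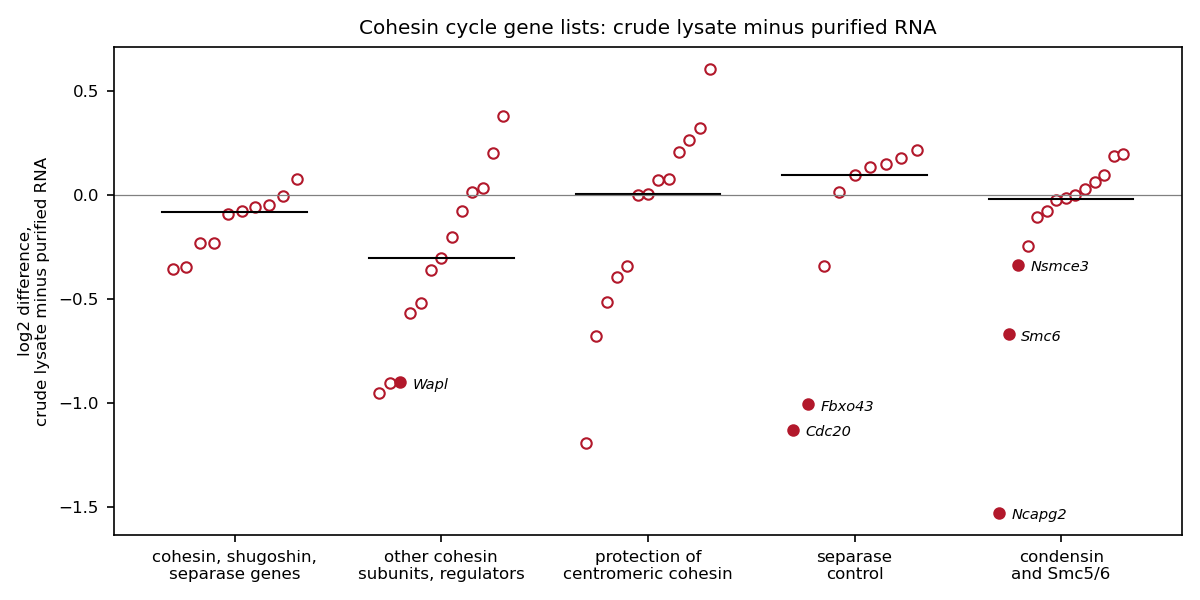
Log2 difference of crude lysate minus purified RNA (y axis) for each gene of 5 lists (x axis). Filled points are named and passed an adjusted p of 0.05 over all genes, open points did not, and black bars are list medians. The 8 cohesin, shugoshin and separase genes above background lie between -0.36 and -0.0051, none of that list is filled (Rec8 and Stag3, below background, are among its open points), and each of 3 other lists holds filled points below 0.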

How the data were processed

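One array per oocyte was used (Affymetrix Mouse Gene 1.0 ST). The authors' deposited log2 expression values hold 35556 rows by 9 arrays. The submitters' processing notes list GCRMA, GCOS and Affymetrix Expression Console but no version. The log2 scale was read from the values (2.41 to 13.90, array medians 7.12 to 7.24). No source used here gives a genome build for the arrays. No scanner files were used, so the number of arrays limits the precision.

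Rows with exactly 1 gene symbol in the platform table (21789 rows) were reduced to 1 per gene by the highest mean, which left 19938 genes. Of these rows, 21698 matched RefSeq (GRCm38.p6) by Entrez identifier and 0 symbols changed. In 54.9% of genes, 5 of the 10 members among them, at least 2 arrays held an identical deposited value.

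All tests are limma 3.58.1 (R 4.3.3; lmFit, eBayes) in 1 fit of 3 groups with 6 residual degrees of freedom, two-sided, at a Benjamini-Hochberg adjusted p of 0.05 over the 19938 genes. The fit was also run on simulated data with independent normal errors. Those data held no identical values and no shared mice, so that run does not vouch for the fit here. Alternatives were quantile normalization, median centring, other row and level filters, values raised to background, a trend and robust fit, the replicate number as a block, and each array left out. Named genes were the members, list genes past the threshold or, in a list with none, the 3 of smallest p among those above background on all arrays, and the 3 genes nearest in pattern to the member of largest spread. Members and lists were chosen with earlier results of these data known. Oocytes may come from the same mouse, and p-values measure only the spread between these samples.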

Additional observations from a re-analysis of the deposited data

Results flagged for a closer look

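Rec8 in RNeasy oocyte 3 (7.39) and Stag3 in PicoPure oocyte 3 (7.15) passed a limit for outliers among the 6 purified oocytes. For Rec8 the gap to the next value was 0.723 of the range of the 6 purified oocytes and for Stag3 0.631, where Dixon's 95% limit for 6 values is 0.625. Both values were below the background level of their array. For independent normal values without ties, chance alone marks 1 group in about 20 at this limit. That rate does not hold for Rec8, whose values were identical in PicoPure oocytes 2 and 3 and RNeasy oocytes 1 and 2. The 6 oocytes also come from both kits.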

How the results depend on the processing

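Over 662 recomputed values of the 10 genes in the 4 comparisons, 0 passed the threshold (limma), and the smallest adjusted p was 0.053, for Espl1 between the kits. The sign changed in 30 of them, none of which passed. With values raised to background Stag3 turned to -0.050 (crude lysate against purified RNA), -0.15 (PicoPure against RNeasy) and -0.12 (direct lysis against RNeasy), and Rec8 to 0.024 (direct lysis against PicoPure). Both genes lie below background on all 9 arrays, so this setting replaces all their values by the background and these numbers are differences in background. With quantile normalization Sgo2a turned to 0.031 and Pttg1 to 0.037 in crude lysate against purified RNA, Pttg1 to 0.035 against RNeasy and 0.039 against PicoPure, and Stag3 to -0.0079 against PicoPure. With median centring Pttg1 turned to 0.0097 between the kits and Stag3 to -0.00097 in direct lysis against PicoPure. With single arrays left out, the difference of crude lysate ran from -0.11 to 0.018 for Rad21, from -0.61 to 0.046 for Sgo1, from -0.16 to 0.058 for Sgo2a, from -0.36 to 0.027 for Espl1 and from -0.035 to 0.048 for Pttg1. The sign changed without direct lysis replicate 1 for Rad21, replicate 3 for Sgo1 and replicate 2 for Espl1, and without RNeasy replicate 3 for Sgo2a. Between the kits Pttg1 ran from -0.027 to 0.019. In direct lysis against RNeasy Sgo1 ran from -0.47 to 0.18, Sgo2a from -0.061 to 0.37 and Pttg1 from -0.038 to 0.046. In direct lysis against PicoPure Rec8 ran from -0.077 to 0.026, Stag3 from -0.015 to 0.089 and Pttg1 from -0.033 to 0.050. The cause was not tested.

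Over all genes, 201 passed between crude lysate and purified RNA, 12 between the kits, 87 in direct lysis against RNeasy and 119 against PicoPure. With single arrays left out these counts ran from 24 (without RNeasy replicate 1) to 232, from 0 to 15, from 3 (without RNeasy replicate 1) to 95 and from 14 (without PicoPure replicate 2) to 123. With the replicate number as a block they were 25, 0, 15 and 17. The labels do not say that the number marks a shared mouse or day, so the numbers were not taken as pairs. The deviations of same-numbered arrays correlated at -0.089 to 0.134 over the 9 pairs. Those of arrays with different numbers correlated at -0.108 to 0.171. For 6 of 9 arrays the closest array of another group had the same number. With only both groups in the fit the counts were 0 between the kits, 3 in direct lysis against RNeasy and 0 against PicoPure. With a trend and robust fit the count between the kits was 0, and with quantile normalization that of direct lysis against PicoPure was 73. The split of calls in crude lysate was 68 higher and 133 lower, and 75 and 83 with quantile normalization. Of 16 alternatives, the call of Wapl was lost in 1 (the replicate block, adjusted p = 0.053), of Ncapg2 in 6, Smc6 in 7, Fbxo43 in 9, Cdc20 in 10 and Nsmce3 in 13. Leaving out RNeasy replicate 1 or 2 or PicoPure replicate 1 or 2 ended the call in each of these but Wapl. Leaving out RNeasy replicate 3 or PicoPure replicate 3 ended it in Smc6, Fbxo43, Cdc20 and Nsmce3. Leaving out direct lysis replicate 2 ended it in Cdc20, Ncapg2 and Nsmce3, replicate 3 in Cdc20, Fbxo43 and Nsmce3, and replicate 1 in Fbxo43.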
